A study of Solanum chacoense with 24 samples.

Results

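EE501F2_500 is a line of the wild diploid potato relative Solanum chacoense, from the F2 population of a cross between 80-1 (USDA8380-1) and M6, and its leaf RNA was compared with that of both parents. The labels give M6 as an inbred line susceptible to the Colorado potato beetle, a leaf-feeding pest of potato, 80-1 as resistant, and EE501F2_500 as susceptible. EE501F2_500 was chosen by the submitters for extreme susceptibility in a field trial. The 3 libraries of EE501F2_500 were found by their label among 24 in all, and were set against 3 libraries of 80-1 and 3 of M6. Each line is represented by 3 plants raised in vitro and grown in a chamber, with no beetle treatment named in the labels, and leaf RNA was isolated 16 weeks after transplanting. By the labels' protocol the plants of a line come from a single individual, so the spread between its plants says nothing about other F2 plants. In leaf RNA, fewer cells of a type and less RNA per cell cannot be told apart.

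An F2 plant carries, at each locus, either a copy from each parent or both copies from the same parent, and long stretches of a chromosome are inherited as a block. A gene whose own regulatory sequence differs between the parents tends to follow the copies present at its locus. A gene that responds to a factor encoded elsewhere can take a level outside that of its own locus, and even outside the range of the parents. Expression alone does not show the genotype, which was not measured in the files used here.

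Total counts of the 3 plants of EE501F2_500 ran from 24975448 to 26895242, and those of the 9 libraries compared from 24975448 to 37687602. TMM scaling factors, which correct for the make-up of each library, were 0.836 to 0.870 in 80-1, 1.02 to 1.09 in M6 and 1.04 to 1.19 in EE501F2_500. Their part in the results was not tested beyond the second scaling method reported at the end. No source used here pairs the identifiers with names or functions, so models are named by identifier, no function is given, and the tissue could not be checked against leaf markers. Levels are CPM (library-size-scaled counts, after TMM scaling), and a model was called at an adjusted p under 0.05 in edgeR's quasi-likelihood test over 20103 models.

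EE501F2_500 differed from 80-1 at 9558 models (47.5% of those tested), 4899 of them higher in EE501F2_500 (24.4%) and 4659 lower (23.2%). Against M6 it differed at 8477 models (42.2%), 4202 higher (20.9%) and 4275 lower (21.3%). The parents themselves differed at 9208 models (45.8%). At least 2-fold differences were called at 4639 models against 80-1 and at 3994 against M6, and the median size of a called difference was 0.97 and 0.94 on the log2 scale. The comparisons share the libraries of EE501F2_500, so their counts are not independent of each other.

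Models were named by edgeR's fitted log2 fold change, over called models whose higher line reached 5 CPM. Near 0 counts this value depends on how the fit treats low counts, so no order is read from it. Against 80-1, g32979 and g7970 were named for a rise, with fitted values of 10.54 and 10.35 that changed order in DESeq2 (9.68 and 10.61) and without replicate 3 of 80-1 (10.57 and 12.45) or replicate 1 (10.52 and 10.55) or 3 (10.34 and 10.41) of EE501F2_500. Bounds on folds ("at least") divide the pooled level, which is the summed counts over the summed scaled library sizes of 3 plants, by the level of 3 such counts, so they differ slightly from a ratio of mean CPM. The first model is g32979 (chromosome 3, 45143757 to 45145349): the plants of EE501F2_500 had 6.53, 4.64 and 7.76 CPM, those of 80-1 had 0 counts, and those of M6 had 1.00, 0.959 and 0.743 CPM. All plants of EE501F2_500 lay above all plants of both parents, at least 156-fold higher than 80-1 (edgeR adjusted p = 4.35e-06) and by a log2 fold change of 2.80 ± 0.29 (SE) over M6 (adjusted p = 0.000123). The other was g7970 (chromosome 10, 21846807 to 21851145), with 16.5, 32.4 and 21.1 CPM in EE501F2_500, 9.79, 23.0 and 10.2 CPM in M6 and 1 count in 80-1. The ratio to 80-1 was 1697, with a 95% counting interval of 304 to 67044 (adjusted p = 3.04e-06). The plants of EE501F2_500 and M6 overlapped at g7970 (log2 fold change 0.70 ± 0.34, edgeR adjusted p = 0.123), but the difference was called without replicate 2 of M6 (adjusted p = 0.00867).

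The models named for a fall against 80-1 had 0 counts in all plants of EE501F2_500, where the limit is 0.0347 CPM (3 counts over the 3 libraries). At g27098 (chromosome 4, 36675439 to 36677351) the plants of 80-1 had 30.1, 24.4 and 34.7 CPM and those of M6 1.55, 1.06 and 1.77 CPM. EE501F2_500 was thus at least 857-fold lower than 80-1 (edgeR adjusted p = 3.98e-07) and at least 41.6-fold lower than M6 (adjusted p = 2.67e-05). At g1262 (chromosome 11, 31635532 to 31636935) 80-1 had 24.0, 16.0 and 24.8 CPM and M6 had 4 counts in all. The level in EE501F2_500 was at least 625-fold lower than in 80-1 (adjusted p = 4.62e-06). Only g1262 of this pair had M6 near the limit as well.

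Against M6, a rise was named at g8614 (chromosome 11, 4034338 to 4035178), with 31.5, 28.6 and 24.96 CPM in EE501F2_500 and 0 counts in M6, at least 982-fold higher (edgeR adjusted p = 1.15e-07). The plants of 80-1 had 10.1, 11.2 and 11.2 CPM, so EE501F2_500 lay above this parent too (log2 fold change 1.39 ± 0.14, adjusted p = 7.70e-05). At g21266 (chromosome 5, 18154946 to 18156957) EE501F2_500 had 26.2, 22.8 and 20.3 CPM, 80-1 had 18.9, 19.5 and 20.3 CPM, and M6 had 0 counts. The rise over M6 was at least 800.6-fold (adjusted p = 1.21e-07), whereas the lowest plant of EE501F2_500 and the highest of 80-1 stood at the same level to 3 digits (log2 fold change 0.24 ± 0.13, adjusted p = 0.175). In the other direction, g10223 (chromosome 7, 1822408 to 1823835) had 15.1, 11.97 and 11.4 CPM in M6, 0 counts in EE501F2_500 and 3 counts in 80-1, at least 365-fold lower than M6 (adjusted p = 8.36e-06). The model g40600 (chromosome 1, 60328031 to 60330351) had 0 counts in EE501F2_500 beside 11.8, 10.3 and 12.2 CPM in M6 and 4.07, 6.90 and 6.32 CPM in 80-1. It was at least 328-fold lower than M6 (adjusted p = 1.53e-06) and at least 165-fold lower than 80-1 (adjusted p = 2.56e-06).

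**Figure D1:**
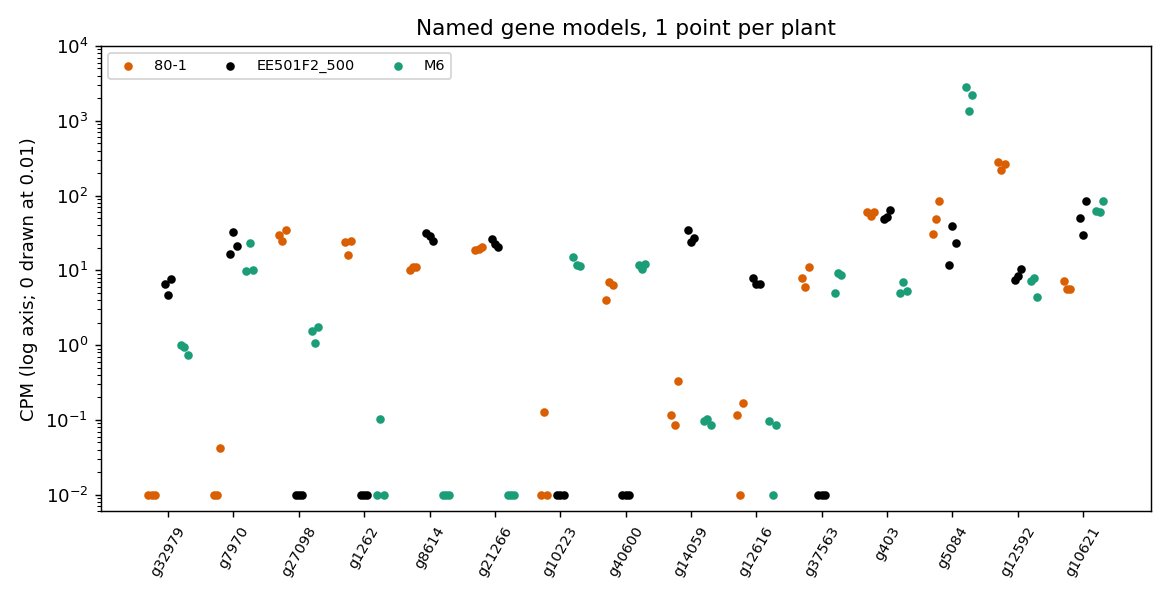
CPM of the named models on a log axis, 1 point per plant, with 80-1 in orange, EE501F2_500 in black and M6 in green, and values of 0 drawn at 0.01. EE501F2_500 had 0 counts at g27098, g1262, g10223, g40600 and g37563, and stood above all plants of both parents at g32979, g8614, g14059 and g12616.

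Each model was then classed by its calls against both parents, which places EE501F2_500 model by model. It was like 80-1 (called against M6 in the direction of 80-1, not called against 80-1) at 2549 models and like M6 at 3244. It lay between the parents, called against both, at 864 models, of which 447 were nearer in CPM to 80-1 and 417 nearer to M6. It was above both parents at 1996 models and below both at 2181. Of the rest, 2160 were called against 1 parent and met no class, 1078 were called between the parents alone, and 6031 were in no call. Of the 9208 models called between the parents, 27.7% were thus like 80-1, 35.2% like M6, 9.38% between, 6.73% above both, 9.26% below both and 11.7% not called against either parent. A missed call does not show that the levels were alike. With a spread estimated over all 24 libraries, the class between the parents fell to 536 models.

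**Figure D2:**
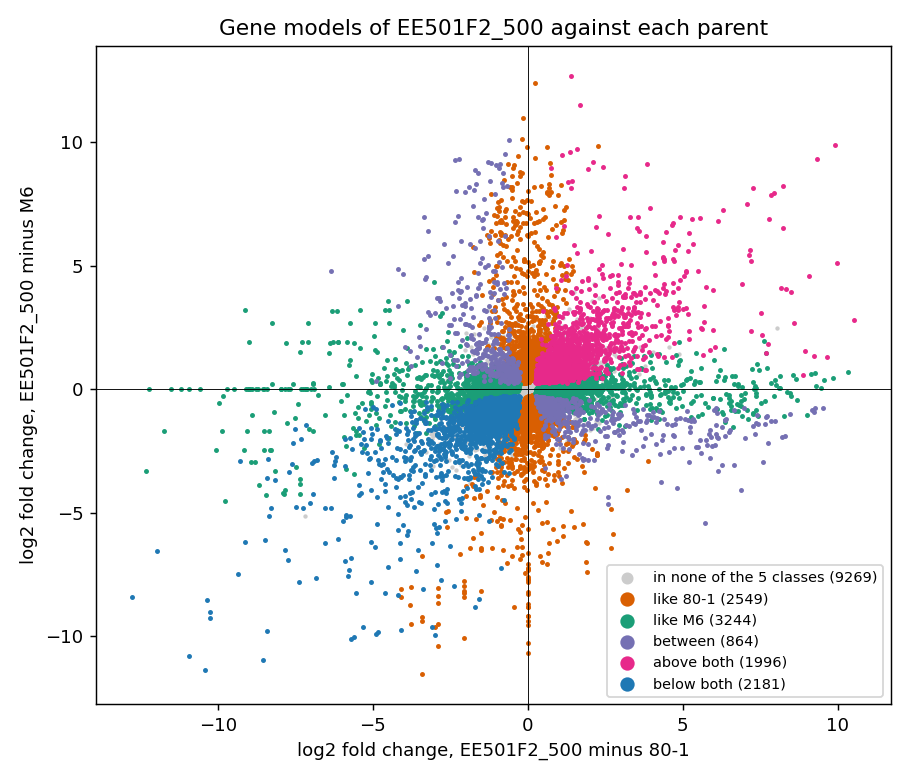
Each point is a gene model, with its log2 fold change of EE501F2_500 minus 80-1 on the horizontal axis and minus M6 on the vertical axis, coloured by class. The models like 80-1 (2549) lie along the vertical axis and those like M6 (3244) along the horizontal axis, while those above both (1996) and below both (2181) fill the corners by definition.

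The model like 80-1 with the largest parental difference toward 80-1, among models with at least 5 CPM in all 3 lines, was g403 (chromosome 1, 58392345 to 58400014). Its levels were 48.0, 51.1 and 64.6 CPM in EE501F2_500, 59.4, 52.5 and 60.3 CPM in 80-1 and 4.91, 6.996 and 5.26 CPM in M6. The plants of EE501F2_500 and 80-1 overlapped and stood apart from M6 (log2 fold change over M6 3.25 ± 0.17, edgeR adjusted p = 5.43e-07). Toward M6, it was g5084 (chromosome 2, 35881361 to 35882667), with 2802, 1367 and 2215 CPM in M6, 30.9, 48.1 and 83.8 CPM in 80-1 and 11.8, 38.8 and 23.4 CPM in EE501F2_500 (log2 fold change over M6 -6.43 ± 0.55, adjusted p = 1.27e-05). Its difference from 80-1 missed the threshold (adjusted p = 0.0580), and was called without replicate 2 of EE501F2_500 (adjusted p = 0.0158) or without replicate 1 of 80-1 (0.0343). With that call, g5084 would be below both parents and not like 80-1.

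Among models like M6, g12592 (chromosome 11, 31078760 to 31086663) had 7.37, 8.42 and 10.6 CPM in EE501F2_500, 7.20, 7.85 and 4.46 CPM in M6 and 280, 217 and 260 CPM in 80-1. The log2 fold change was -4.84 ± 0.23 against 80-1 (edgeR adjusted p = 2.18e-07) and 0.44 ± 0.21 against M6 (adjusted p = 0.120). At g10621 (chromosome 9, 828556 to 829879), M6 had 62.0, 60.3 and 83.8 CPM, EE501F2_500 had 49.5, 30.0 and 85.6 CPM, and 80-1 had 7.26, 5.59 and 5.65 CPM. The plants of EE501F2_500 were spread on both sides of those of M6 (log2 fold change -0.32 ± 0.30, adjusted p = 0.421), and without replicate 3 of EE501F2_500 the line was called below M6 there (adjusted p = 0.0198).

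Models outside the range of the parents made up 20.8% of those tested, 4177 in all, and at 2704 of them the parents were not called apart. At least 2-fold differences from each parent were estimated at 702 of the models above both and 823 of those below both. Named above both, by the smaller of the fitted differences from the parents, were g14059 (chromosome 8, 28265327 to 28266202) and g12616 (chromosome 1, 33486599 to 33487282). At g14059 the plants of EE501F2_500 had 34.2, 23.7 and 26.7 CPM, with 13 counts in all of 80-1 and 10 in all of M6. The ratio was 159 to 80-1 (95% counting interval 92.6 to 299, edgeR adjusted p = 1.81e-07) and 294 to M6 (160 to 614, adjusted p = 1.83e-07). At g12616 EE501F2_500 had 7.84, 6.59 and 6.61 CPM beside 7 counts in 80-1 and 6 in M6, a ratio of 73.2 (35.3 to 183) and 122 (55.7 to 333). Both models were thus close to silent in both parents and read in every plant of EE501F2_500.

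Named below both were g37563 (chromosome 11, 9721316 to 9723067) and g40600, described above. All plants of EE501F2_500 had 0 counts of g37563, whereas 80-1 had 7.96, 5.92 and 11.1 CPM and M6 had 5.04, 9.33 and 8.66 CPM. The level was at least 240-fold lower than in 80-1 (edgeR adjusted p = 8.28e-06) and at least 226-fold lower than in M6 (adjusted p = 1.14e-05). Here the plants of the parents overlapped with each other, and EE501F2_500 lay apart from both.

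The other F2 lines took no part in these classes and show how far the levels outside the parents were shared. At 1609 of the 1996 models above both (80.6%), the means of at least 3 of the other 5 lines also lay above both parents. Below both parents this held at 1609 of 2181 models (73.8%). A share over all tested models is not given here for at least 3 lines, so these counts alone do not measure sharing. Line by line, 57.2% to 78.6% of the models above both were shared, beside 27.2% to 37.3% of all tested models with a mean above both. For models below both, the shares were 42.2% to 84.0%, beside 25.5% to 36.8%. At g14059, EE501F2_089 (16.3 CPM) and EE501F2_516 (27.7 CPM) were also far above the parents, whereas EE501F2_093, EE501F2_099 and EE501F2_641 had 0.898, 1.80 and 3.28 CPM. At g37563, EE501F2_516 (0.0106 CPM) and EE501F2_093 (0.0461 CPM) were low as well, and EE501F2_641 (6.20 CPM) was at the level of the parents. At g40600 each of the other 5 lines was read, with means from 1.26 to 4.82 CPM, and EE501F2_500 differed from their mean (edgeR adjusted p = 1.67e-05). The difference from that mean was not called at g37563 (adjusted p = 0.1002) or at g27098 (0.179), where the other 5 lines were near 0 as well, from 0.0106 to 0.0855 CPM. It was called at the named models above both parents, g14059 (adjusted p = 0.00161), g12616 (0.00327), g32979 (2.40e-05) and g8614 (1.92e-08). Over the 702 models 2-fold above both parents, the median level was 8.71 CPM in EE501F2_500, 1.94 in 80-1 and 1.82 in M6, and in the other F2 lines it ran from 3.71 (EE501F2_093) to 6.31 (EE501F2_516). Over the 823 models 2-fold below both, it was 2.04 CPM in EE501F2_500, 10.9 in 80-1 and 10.1 in M6, and 3.40 (EE501F2_516) to 7.69 (EE501F2_093) in the other lines. All F2 lines were set against the same parental libraries, and the models were chosen for high or low levels in EE501F2_500.

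In a fit over all 24 libraries, EE501F2_500 was higher than the mean of the other 5 F2 lines at 2569 of 21028 models (12.2%) and lower at 2081 (9.9%). Of the 1996 models above both parents, 855 were called higher than this mean and 10 lower. Of the 2181 models below both, 911 were called lower and 45 higher. The libraries of EE501F2_500 enter the classes and this test alike, so a shared direction is partly built in. The total of 4650 calls (22.1%) fell to 2780 without replicate 1 of EE501F2_500 to 3001 without replicate 2 and to 3163 without replicate 3.

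Parent-like blocks were mapped with a parental state, which sets each model of EE501F2_500 on a scale from the M6 level (0) to the 80-1 level (1) in CPM, so that an equal mix of the parental levels lies at 0.5. It was computed for 2234 marker models, called between the parents and at least 4-fold apart (2 or more on the log2 scale, in either direction). The parental libraries both chose the markers and set the scale. The median state over all markers was 0.476, 0.471 and 0.469 in the 3 plants. Single markers covered the whole scale, with 37.8% under 0.25, 29.0% from 0.25 to 0.75 and 33.2% over 0.75. Medians were then taken in windows of 5 Mb, of which 95 held at least 5 markers out of 109 with a tested model.

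Of the 95 windows, 17 were at the M6 state (median under 0.25), 15 at the 80-1 state (over 0.75) and 63 between. Single markers were mixed within each kind of window. Of the 1424 markers in windows between, 35.7% were under 0.25 and 30.3% over 0.75. A median between the states thus does not show that most of its markers lay near an equal mix. In windows at the M6 state 18.1% of markers were over 0.75, and in windows at the 80-1 state 21.6% were under 0.25. Runs of at least 2 neighbouring windows at a parental state were found on chromosomes 1, 2, 4, 8 and 11. The 3 plants fell in the same state in 65 windows, and their medians differed by over 0.25 in 17 windows and by over 0.4 in 4. The widest gap between plants was at 5 to 10 Mb of chromosome 7 (0.273, 0.137 and 0.789), a window of 5 markers. The longest runs between the states were 7 windows each, at 0 to 35 Mb of chromosome 6 (median 0.454 over 159 markers) and at 5 to 45 Mb of chromosome 12 (0.507 over 116 markers, with a window of too few markers in it).

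**Figure D3:**
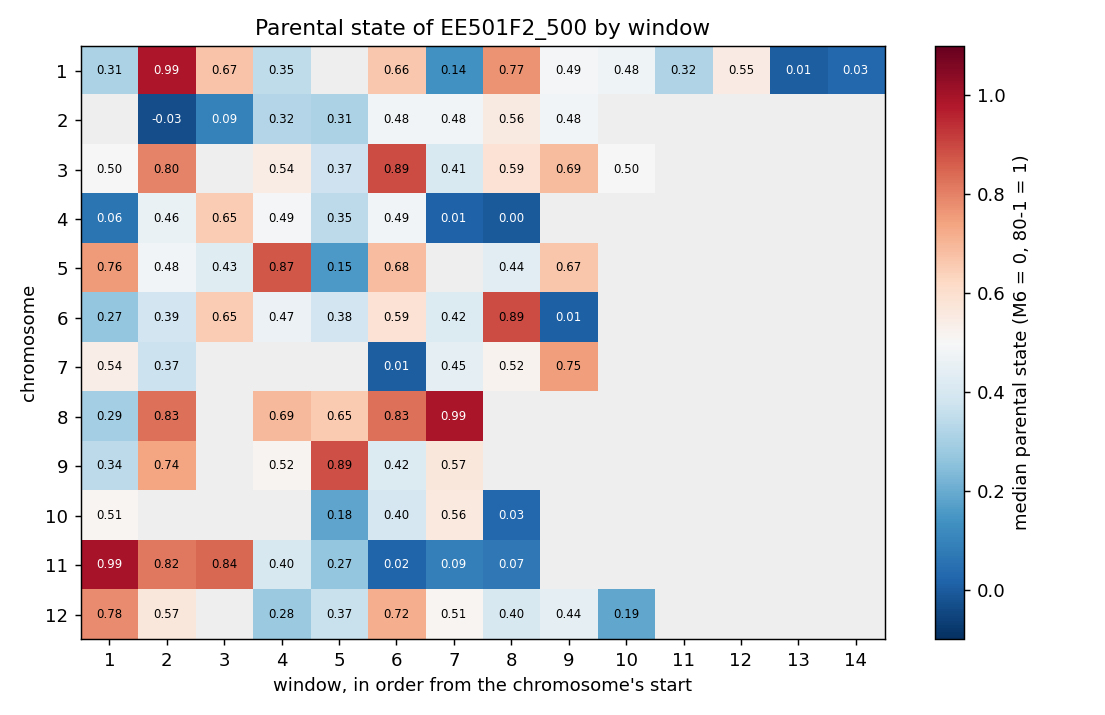
Median parental state of EE501F2_500 in 5 Mb windows, with chromosomes as rows and windows in order from the start of each chromosome, and grey where fewer than 5 markers or no chromosome were present. Chromosome 11 runs from 0.99 in the first window to 0.07 in the last, and the last windows of chromosomes 1 and 4 are near 0.

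Chromosome 11 held the longest run at each parental state. Its first 3 windows (0 to 15 Mb, markers from 142091 to 14660293) were at the 80-1 state, with 0.954, 0.897 and 0.930 in the 3 plants over 102 markers. Its last 3 (25 to 40 Mb, markers from 25307355 to 38167954) were at the M6 state, with 0.126, 0.0782 and 0.0338 over 92 markers. The windows from 15 to 25 Mb, between these runs, had medians of 0.404 and 0.270. In the second of them the plants taken singly were all at the M6 state (0.00765, 0.0762 and 0.0399), so the bound of the run there depends on whether plants are averaged first. Both named models of this chromosome that were like M6, g1262 and g12592, lie in the run at the M6 state. The model g8614, read in EE501F2_500 and 80-1 but not in M6, lies in the run at the 80-1 state, though above both parents. That run also holds g37563, which was below both parents, with 0 counts in EE501F2_500, and so follows neither parent. Large parental differences also enter the markers, so g1262, g12592 and g8614 are no separate evidence.

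The end of chromosome 1 (60 to 70 Mb) was at the M6 state, at 0.0 in plants 1 and 2 and 0.0129 in plant 3 over 55 markers. The end of chromosome 4 (30 to 40 Mb) was at the M6 state too, with 0.0283, -0.000572 and -0.00234 over 60 markers. Both runs rest on the pooled markers, and in the last window of each the markers of the 2 parental directions disagreed, as given further on. On chromosome 2, the windows from 5 to 15 Mb were at the M6 state with 0.00654, 0.139 and 0.188, on no more than 14 markers, and the 6 windows from 15 to 45 Mb lay between (median 0.488 over 160 markers). On chromosome 8, the windows from 25 to 35 Mb were at the 80-1 state with 0.912, 0.860 and 0.891 over 51 markers. Within each of these runs, with markers pooled over its windows, the plants lay closer together than the bounds of the states lie apart. In single windows the plants did not all share a state at 25 to 30 Mb of chromosome 8 (0.828, 0.702 and 0.870). On chromosome 11 this was also so at 5 to 10 Mb (0.736, 0.754 and 0.850) and at 10 to 15 Mb (0.682, 0.891 and 0.773).

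**Figure D4:**
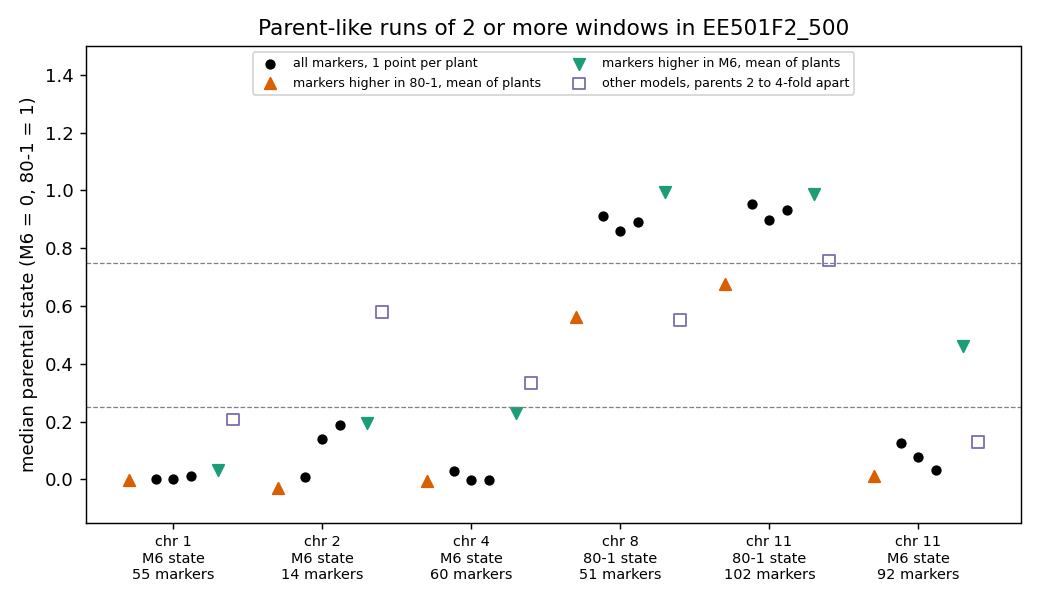
Median parental state in the runs of at least 2 windows at a parental state: black points are the 3 plants over all markers, triangles the markers higher in 80-1 and in M6, and squares models with a parental difference of 2 to 4-fold that set no state. With markers pooled over the windows of a run, its 3 plants fall in the same state, and single windows are not drawn. The squares run from 0.129 (chromosome 11, M6 state) to 0.758 (chromosome 11, 80-1 state) and lie nearer to the middle than the points.

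Markers higher in 80-1 and markers higher in M6 were also taken apart. The median state was 0.247 over the 1151 markers higher in 80-1 and 0.680 over the 1083 markers higher in M6. In CPM, EE501F2_500 thus stood nearer to the lower parent in both groups, at a median of 33.5% of the 80-1 level and 39.9% of the M6 level. This reading holds for CPM without logs, and the parental libraries that set the scale also chose the markers. The other F2 lines also had a lower median state for the markers higher in 80-1 (0.173 to 0.362) than for those higher in M6 (0.486 to 0.693). In 67 windows with at least 5 markers of each group, the markers higher in M6 gave the larger median in 59, and both groups fell in the same state in 25. Both groups were at the M6 state at 60 to 65 Mb of chromosome 1 (-0.00178 and 0.0327) and at 30 to 35 Mb of chromosome 4. Both passed the bound of the 80-1 state at 5 to 10 Mb of chromosome 1, 5 to 10 and 25 to 30 Mb of chromosome 3, and 0 to 5 Mb of chromosome 11 (1.00 and 0.992). That state has no upper bound, and at 5 to 10 Mb of chromosome 3 the 6 markers higher in 80-1 were at 1.61, above the 80-1 level. The 8 models 2 to 4-fold apart in that window were at 0.0570, the M6 state. In the run at the M6 state of chromosome 11 the marker groups were at 0.0131 (higher in 80-1) and 0.461 (higher in M6), so that only the first group was at the M6 level. The second window of the runs on chromosomes 1 and 4 was split in the same way: the markers higher in 80-1 were at 0.00847 and the others at 0.717 at 65 to 70 Mb of chromosome 1, and at -0.0252 and 0.794 at 35 to 40 Mb of chromosome 4. In the runs at the 80-1 state, the markers higher in 80-1 were at 0.677 on chromosome 11 and 0.563 on chromosome 8, below the bound of that state, and the markers higher in M6 at 0.987 and 0.995. Across the 67 windows, Pearson's r between both groups was 0.193, a description over windows that share the same libraries.

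The 2423 models with a smaller parental difference, from 2-fold to under 4-fold, did not enter the states and give a view from other genes. Their median state was 0.758 in the 80-1 run of chromosome 11 and 0.129 in its M6 run. It was 0.208 at the end of chromosome 1, 0.333 at the end of chromosome 4 and 0.551 in the run of chromosome 8, and on chromosome 2 from 5 to 15 Mb it was 0.580 over 14 models, outside the M6 state. Over all windows with at least 5 such models, the median was 0.381 in 16 windows at the M6 state, 0.446 in 59 between and 0.498 in 13 at the 80-1 state. Of the first 16, 5 were at the M6 state by these models, and of the last 13, 1 was at the 80-1 state. Pearson's r over 88 windows was 0.215, again a description.

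Over models that were no markers but were called between the parents, the classes followed the windows in the same order. At windows of the M6 state, 41.5% of 1141 such models were like M6 and 22.2% like 80-1. At windows of the 80-1 state, 30.6% of 1130 were like M6 and 31.2% like 80-1, and at windows between, 35.7% and 26.6% of 4526. Models above or below both parents were counted over all models that were no markers, whether or not the parents were called. These were 3050 at windows of the M6 state, 11516 between and 2827 at the 80-1 state. Their shares were similar in the 3 kinds of window, from 10.2% to 12.5% above and from 10.96% to 12.5% below. No test was made of these shares, since neighbouring models are inherited together.

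Models read in a single parent give a view less dependent on the scale of the state. With at most 3 counts in all of one parent and at least 1 CPM in the other, 178 models were read in 80-1 alone and 154 in M6 alone. EE501F2_500 had more than 3 counts at 121 of the first (68.0%) and at 118 of the second (76.6%). By windows whose state was recomputed without these models, it read 16 of 40 models of 80-1 at the M6 state, 78 of 104 between and 20 of 24 at the 80-1 state. Of the models of M6 it read 26 of 31, 75 of 98 and 13 of 20. The median level, as a ratio to the parent that reads the model, was 0.0111, 0.357 and 0.503 for models of 80-1, and 0.489, 0.332 and 0.0889 for models of M6, in windows at the M6 state, between and at the 80-1 state. The 2 groups of models moved in opposite directions across the windows, in share and in level.

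**Figure D5:**
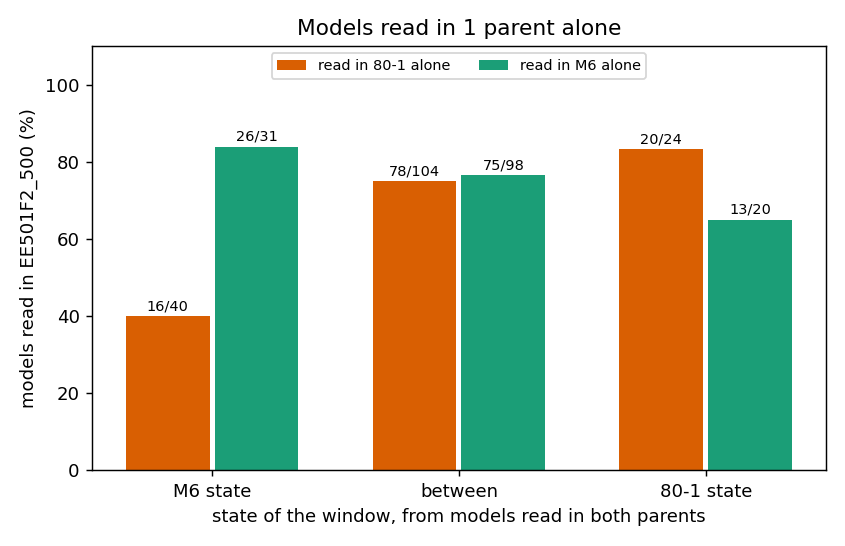
Share of models read in 80-1 alone (orange) or in M6 alone (green) that had more than 3 counts over the 3 plants of EE501F2_500, by the state of their window. For models of 80-1 it goes from 16 of 40 to 20 of 24, and for models of M6 from 26 of 31 to 13 of 20.

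Set among the F2 lines on a scale with all 24 libraries, EE501F2_500 had a median state of 0.470, beside 0.305 in EE501F2_099, 0.439 in EE501F2_093 and 0.441 in EE501F2_516, and 0.526 and 0.527 in EE501F2_089 and EE501F2_641. At the M6 state it had 17 windows, where the other susceptible lines, EE501F2_093 and EE501F2_099, had 27 and 43 and the resistant lines EE501F2_641, EE501F2_089 and EE501F2_516 had 9, 20 and 23. Its state matched that of another F2 line in 48 (EE501F2_089) to 54 (EE501F2_641) of the 95 windows. The widest gaps to all other lines were at 20 to 25 Mb of chromosome 9, where EE501F2_500 stood at 0.886 and the others at 0.156 to 0.321, and at 60 to 65 Mb of chromosome 1, where it stood at 0.006 and the others at 0.410 to 0.864. In the window of chromosome 9, with the 9 libraries, the 10 markers higher in 80-1 were at 0.610, between the states. The 9 markers higher in M6 were at 0.929, and the 23 models 2 to 4-fold apart at 0.584. In the window of chromosome 1 both marker groups were at the M6 state, as given above. At 5 to 10 Mb of chromosome 2, EE501F2_500 (-0.030) stood beside EE501F2_099 (0.049) and EE501F2_093 (0.210), and the resistant lines EE501F2_641 (0.727), EE501F2_089 (0.929) and EE501F2_516 (0.953) were higher. The window of chromosome 2 holds 8 markers, and its M6 state in EE501F2_500 rests on the pooled set. On the scale of the 9 libraries, its 5 markers higher in M6 had a median of 0.722. Its 8 models 2 to 4-fold apart were at 0.468. Without the models read in a single parent, the marker median also lay between the states. At 0 to 5 Mb of chromosome 7, EE501F2_500 (0.535) lay between the resistant lines (0.300 to 0.419) and the other susceptible lines (0.815 and 0.865). This value of EE501F2_500 also rests on the pooled set. With the 9 libraries, the 17 markers higher in M6 had a median of 0.927 and the other 12 markers 0.137. Neither marker group was thus between the states, whereas the 37 models 2 to 4-fold apart were at 0.393. These windows of chromosomes 2 and 7 were chosen after their values were seen, and the order of the lines was not tested.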

How the data were processed

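Leaf RNA of 3 plants each of EE501F2_500, 80-1 and M6 was analysed, with the other 15 libraries as context. The authors deposited raw counts for 37740 gene models, and, per the file headers, in columns as featureCounts writes them. The submitters' processing notes list DESeq2, featureCounts 1.5.3 of Subread, STAR 2.6.0 and Trimmomatic 0.35, without roles. Genome build, annotation, strand setting and the treatment of multi-mapping reads were not given in the sources used here, so reads of near-identical or antisense models could not be separated. The deposited table also gives the length in bases of each model, another unit, which was not used. Coordinates are the outermost exon ends. The 7954 unplaced models had 0 counts in every library.

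Counts were tested in R 4.3.3 with edgeR 4.0.16: filterByExpr left 20103 models, libraries were scaled by TMM, and a quasi-likelihood fit with 1 mean per line over 9 libraries (6 residual degrees of freedom) gave p-values adjusted by the Benjamini-Hochberg method. The 9 libraries were chosen over all 24 because earlier results of these data had shown the plants of EE501F2_641 to differ from each other, which widens a shared spread. Standard errors are the log2 fold change divided by the square root of F. Folds against a line at 0 use a floor of 3 counts over its libraries and the summed counts of the other line. Counting intervals (95%) are exact binomial, and they and floors cover counting error only. Replicate libraries of a line differed by more than sampling noise (chi-square per degree of freedom 11.1 to 59.0). The plants of a line were taken as 1 genotype, as the labels' protocol reads, with no genotype data used here, so p-values measure only the spread between these plants.

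Per comparison, the 2 rises and 2 falls with the largest fitted log2 fold change and at least 5 CPM in the higher line are named. Named too are the 2 models with the largest smaller difference above and below both parents, at that level in EE501F2_500 or in both parents, and the model of each parental direction with the largest parental difference among those like 80-1 and like M6, with at least 5 CPM in every line. None of the named models overlaps another. Lists of known genes could not be looked up without gene names. The members and rules were chosen with earlier results of these data known. Alternatives changed scaling, filter, tool (DESeq2 1.42.0), libraries, thresholds, windows and markers. The fits and states were also run on simulated data. For the states, all models of a chromosome followed the same mix of the parental levels. Disagreement of markers within a window was not simulated, so this run does not bear on it.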

Additional observations from a re-analysis of the deposited data

How the results depend on the processing

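Requiring a 2-fold difference as well, calls were 4639 against 80-1 and 3994 against M6, and the classes held 1418 (like 80-1), 1676 (like M6), 350 (between), 702 (above both) and 823 (below both) models. The class between held 536 in the fit of all 24 libraries. The counts of the other classes, and of calls against either parent, stayed within 1.5 times under RLE scaling, no filter, DESeq2, 21 or 24 libraries and each left-out plant, and so did the calls, the classes not being computed, with the 6 libraries compared alone. Windows at the 80-1 and M6 states were 5 and 10 with 10 Mb windows, 34 and 40 with 2 Mb windows, and, chosen after seeing the data, 7 and 4 from the mean of the medians of both marker groups. The number of windows changes with their length, and the mean of both groups covers 67 windows. These counts are thus not shares of the same total. With markers of at least 2-fold, 9 windows were at the 80-1 state. The median state was 0.453 on the log2 scale and 0.458 with markers of at least 2-fold. Leaving out 1 plant at a time gave 0.444 to 0.496 for this median, and 2780 to 3163 calls against the mean of the other 5 F2 lines. It gave 10 to 18 windows at the 80-1 state and 15 to 25 at the M6 state. Without replicate 2 of M6 they were 10 and 25, so the near balance of the window counts rests partly on that library. With the replicate number as a replicate block, 8680 models were called against 80-1 and 7525 against M6. Same-numbered plants did not deviate together (r from -0.155 to 0.0989 over 9 pairs), and plants of other numbers had r from -0.151 to 0.144. No pairing by number was thus seen. The pairs share libraries, and a shared batch was not tested. Of 390 log2 fold changes of named models under alternatives, none changed sign among called values and 5 crossed the threshold, all from not called to called, g7970 against M6 with the replicate block among them (adjusted p = 0.0128). The map of windows is limited by marker number, 5 to 66 per window, and low models by depth.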

Other observations

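The balance of the parent-like classes of EE501F2_500 differed along the genome. Chromosome 8 had 198 models like 80-1 and 132 like M6, the highest share like 80-1 of all chromosomes. On chromosome 10 there were 142 and 241 (37.1% like 80-1), on chromosome 4 there were 172 and 271 (38.8%), and over the whole genome the share was 44.0%. Chromosome 5, with 221 and 216, was the other chromosome with a majority of its parent-like models like 80-1. Models between the parents were 6.09% of those tested on chromosome 12 and 2.96% on chromosome 4. The shares above both parents ran from 8.33% (chromosome 11) to 10.9% (chromosome 3), and those below both were lowest on chromosome 6 (8.78%) and highest on chromosome 8 (146 of 1123 models). These are values without a test, since neighbouring models are inherited together.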
